A study of Mus musculus with 12 samples.

Results

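Cytosolic ribosomal proteins are the protein components of the translating ribosome, and 60 genes for them were read in bone marrow cells of 4 mouse genotypes. Members were all genes whose single symbol on a probe set was Rps or Rpl with a number and at most a short suffix (a, x, l or l1), together with Rplp0, Rplp1, Rplp2 and Rpsa. They were measured by 215 of 28815 probe sets and made up 60 of 19935 genes with a single symbol. There were 22 small-subunit genes, 35 large-subunit genes and 3 genes of the stalk, and 7 of these 60 were paralogs of a core protein. A further 17 symbols of the same pattern, Rpl3, Rpl11, Rps24 and Rps26 among them, stood only on probe sets with several symbols and are not analysed here.

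Bone marrow of male C57BL/6J mice aged 10 to 12 weeks was enriched with magnetic beads for CD71, the transferrin receptor carried by red cell precursors, and RNA of each mouse was read on its own Affymetrix whole-transcript array. Each of 4 genotypes had 3 mice: WT, the unmodified wild type; CD70TG, which carries a transgene for CD70 and is of 1 clone that the labels call F13; Ifng-/-, which lacks the interferon-gamma gene; and CD70TG*Ifng-/-, which has both changes and whose label names no clone. CD70 is the ligand of the costimulatory receptor CD27 on lymphocytes, and interferon-gamma is a cytokine that activated T cells release. The labels do not say which promoter drives the transgene, whether any change is limited to 1 cell type, or what treatment the mice had beyond standard housing, and every group shares strain, sex, age and enrichment. Ifng and Cd70 could not check the labels: Ifng differed by -0.10 in Ifng-/- against WT (limma, Benjamini-Hochberg adjusted p = 0.632) and Cd70 by 0.26 in CD70TG against WT (adjusted p = 0.18), both in the lower of the level classes described next, and where the probes lie relative to the deletion or the transgene is not given in the sources used here.

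Every deposited value is a log2 value relative to the median of its probe set over the 12 arrays, so a value of 0 means the middle of these arrays and no absolute level is held. The rounding of the numbers still told apart a higher level class, probe sets inferred to have had an original log2 level of at least 8 on all arrays. All other probe sets form the lower class, and no label states this boundary. A gene was placed in the higher class if most of its probe sets were. Rpl23 and Rps21, each with 1 of 2 probe sets in it, thus counted as lower. This class held 2750 of 19935 genes and 47 of the 60 ribosomal protein genes. All 15 erythroid markers, Tfrc (CD71) among them, were in it, against 1 of 19 macrophage and 0 of 15 B cell markers. In RNA from mixed cells, fewer cells of a type and less RNA per cell cannot be told apart.

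Ribosomal proteins assemble with ribosomal RNA in the nucleolus into a small subunit, which reads the messenger RNA, and a large subunit, which forms the peptide bond. Red cell precursors make very large amounts of globin in a short time, and inherited loss of a single ribosomal protein causes Diamond-Blackfan anaemia, in which these precursors fail. The messenger RNAs of ribosomal proteins begin with a C and a run of pyrimidines, the terminal oligopyrimidine (TOP) motif, through which mTORC1 and Larp1 control their translation, a step that RNA levels do not show.

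The starts of 5 genes named in the results are shown so that this motif can be read next to the values. Rpl38 is shown although it passed the test in none of the comparisons described below. Each runs from 60 bases before to 15 bases after a start site that RefSeq lists in build GRCm38.p6, on the strand of the gene. Capitals mark the pyrimidines that run on from a C at the listed start, and further pyrimidines can stand directly before it.
Rps18, chr17:33955651-33955725, minus strand: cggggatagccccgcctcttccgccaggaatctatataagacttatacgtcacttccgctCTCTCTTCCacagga
Rps15a, chr7:118116133-118116207, minus strand: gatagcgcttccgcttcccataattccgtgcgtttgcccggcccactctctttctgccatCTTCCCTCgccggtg
Rpl38, chr11:114668520-114668594, plus strand: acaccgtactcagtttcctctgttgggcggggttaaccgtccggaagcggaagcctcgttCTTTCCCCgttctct
Rpl10, chrX:74270756-74270830, plus strand: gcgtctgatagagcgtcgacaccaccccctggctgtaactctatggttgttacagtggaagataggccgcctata
Rps3, chr7:99483695-99483769, minus strand: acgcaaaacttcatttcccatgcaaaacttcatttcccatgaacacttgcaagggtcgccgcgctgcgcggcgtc

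Rps18, Rps15a and Rpl38 carry a TOP start at the listed base, and Rpl10 and Rps3 do not at the starts listed for them. Of the other genes found higher in CD70TG below, Rpl32l carries one at the listed base. Rpl4, Rpl27, Rpl10a, Rpl7l1 and Rps27l do not at the starts listed for them. Among the 57 promoters that matched 48 of the 60 genes, 10 (17.5%) had a C followed by at least 4 pyrimidines at the listed start, against 2.51% of all 32851 promoters in the table. Within 5 bases of the start the shares were 35.1% and 18.3%. The letters CCGGAAG, on either strand in the window from 250 bases before to 50 after the start, were in 19 of the 57 (33.3%) against 8.86% of all promoters, and ATGGCGG in 9 (15.8%) against 4.05%. CACGTG was in 7 (12.3%) against 7.15%, and TATAAA, on the transcribed strand 40 to 20 bases before the start, in 0 of 57 against 1.99%. These matches describe letters only, and windows can overlap where a gene has several listed starts.

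With Ifng intact, the transgene went with higher RNA of a minority of ribosomal protein genes. In CD70TG against WT, 12 of 60 passed the test as higher and 0 as lower (limma over 19935 genes, adjusted p under 0.05), which is 20% of the members called higher against 8.23% of all genes, of which 2.7% were called lower. Rps18, a protein of the head of the small subunit, showed the largest change at 0.47 on the log2 scale, and the 12 rose by 0.24 to 0.47. The median change over all 60 was 0.16, with 53 above 0, while all genes had a median of -0.02. Genes of the higher level class as a whole had a median of 0.19 with 22.5% called higher. The 47 members in that class had a median of 0.17 with 9 called (19.1%), near those of other genes at that level. Of the 13 members in the lower class 3 were called (23.1%), Rpl30, Rps27l and Rpl32l, and the median was 0.11. All genes of the lower class had 5.94% called higher and a median of -0.04. These 3 members kept their calls after each array was centred within level classes, and the difference from the class was not tested.

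**Figure D1:**
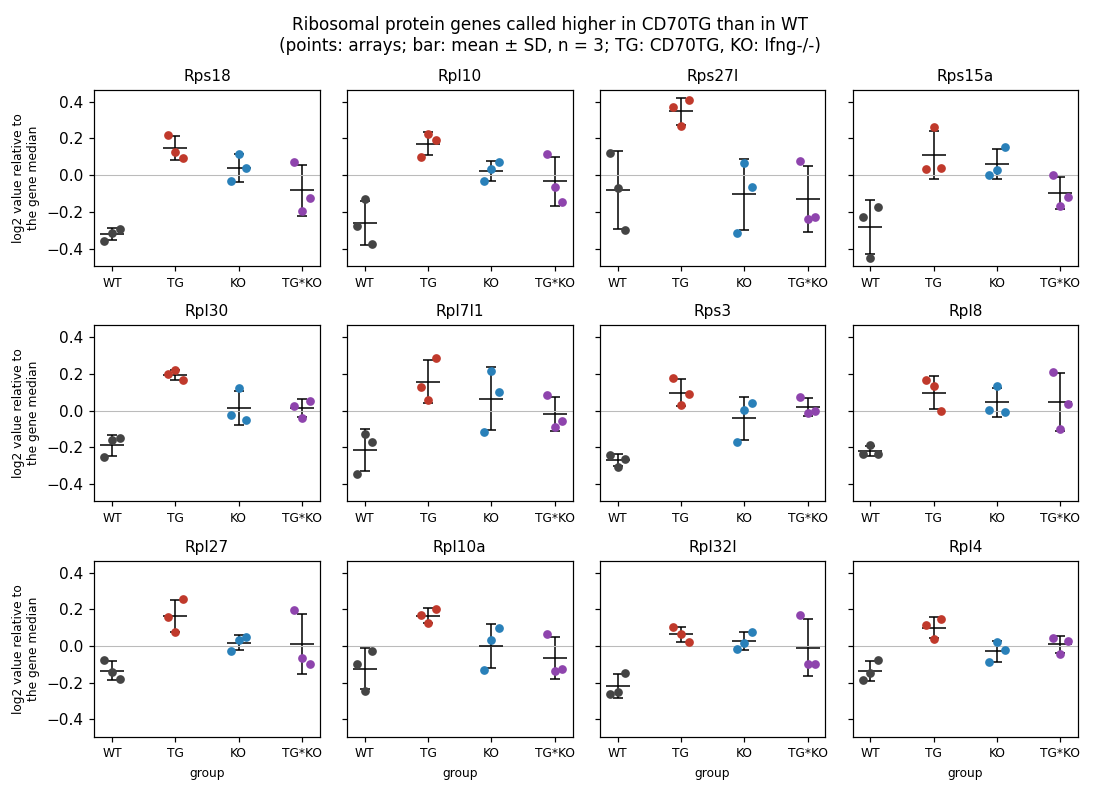
The 12 ribosomal protein genes called higher in CD70TG than in WT, with the log2 value relative to the gene's median on the vertical axis, 1 point for each array and a bar for the mean ± SD (n = 3 in each group). The 3 CD70TG points lie above the 3 WT points in each panel, and the Ifng-/- and CD70TG*Ifng-/- points lie mostly around 0.

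Among the small-subunit genes 4 of 22 rose (18.2%), and 19 of the 22 were in the higher level class. That share is near the 22.5% called higher over that class, and 8.23% of all genes were called higher. Rps18 read -0.36, -0.32 and -0.30 in WT and 0.22, 0.13 and 0.092 in CD70TG. Without Ifng it read -0.033, 0.12 and 0.037 in mice lacking the transgene and 0.072, -0.20 and -0.12 in those carrying it. All WT arrays were thus below every other array, and the CD70TG arrays were above WT by 0.47 ± 0.08 (SE, adjusted p = 0.00281). Rps3, which lines the channel where messenger RNA enters, read -0.24, -0.31 and -0.26 in WT and 0.18, 0.029 and 0.087 in CD70TG. Again the groups did not overlap, and the difference was 0.37 ± 0.08 (SE, adjusted p = 0.00772). Rps15a, one of the Diamond-Blackfan anaemia genes, read -0.23, -0.45 and -0.18 in WT and 0.035, 0.26 and 0.038 in CD70TG. Its 3 CD70TG values were higher, with 1 well above the other two, and the difference was 0.40 ± 0.09 (SE, adjusted p = 0.0155).

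Rps27l, a paralog of Rps27 and a known target of p53, read 0.12, -0.068 and -0.30 in WT and 0.37, 0.27 and 0.41 in CD70TG. The CD70TG arrays were the 3 highest of all 12, and WT was widely spread. The difference was 0.43 ± 0.12 (SE, adjusted p = 0.0366).

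Among the large-subunit genes 8 of 35 rose (22.9%), and 26 of the 35 were in the higher level class. That share is near the 22.5% called higher over that class, and 8.23% of all genes were called higher. Rpl10, an X-linked protein that joins the large subunit late and sits by its catalytic centre, read -0.28, -0.13 and -0.37 in WT and 0.10, 0.22 and 0.19 in CD70TG. No WT array reached the CD70TG range, and the difference was 0.43 ± 0.09 (SE, adjusted p = 0.0066). Rpl30 read -0.26, -0.16 and -0.15 in WT and 0.20, 0.22 and 0.17 in CD70TG, each group within a narrow range. Its difference was 0.39 ± 0.07 (SE, adjusted p = 0.00424).

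Rpl7l1, a paralog of Rpl7, rose by 0.37 (adjusted p = 0.0274), and Rpl8, a protein of the catalytic centre, by 0.32 (adjusted p = 0.0291). Rpl27, another Diamond-Blackfan anaemia gene, rose by 0.30 (adjusted p = 0.0378), and Rpl10a, of the flexible arm that guides spent transfer RNA out, by 0.29 (adjusted p = 0.0455). The remaining 2 called genes, Rpl32l (0.28) and Rpl4 (0.24), a protein that lines the exit tunnel, complete the list and fell outside the 10 largest changes.

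Genes of the ribosomal stalk, which recruits elongation factors, did not pass. Rplp0 differed by 0.15 (adjusted p = 0.197), Rplp1 by 0.08 (adjusted p = 0.591) and Rplp2 by 0.09 (adjusted p = 0.513). Of the Diamond-Blackfan anaemia genes, 11 were measured, all in the higher level class, and 3 of them (Rps15a, Rpl8 and Rpl27) rose, with a median of 0.19. That class as a whole had 22.5% called higher and the same median, and after each array was centred within level classes limma called 0 of the 11 and the median was 0.039. Rps19, the gene most often mutated in that disease, read -0.022, -0.15 and 0.091 in WT and -0.11, 0.034 and 0.29 in CD70TG. These groups overlapped widely, and the difference of 0.10 did not pass (adjusted p = 0.616). Rpl5, which together with Rpl11 can bind and block Mdm2, differed by 0.19 (adjusted p = 0.122). Rps14 differed by 0.12 (adjusted p = 0.52), Rpsa by 0.18 (adjusted p = 0.308) and Rpl22 by 0.11 (adjusted p = 0.522).

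Of the 7 paralogs, 1 of them in the higher level class, Rps27l, Rpl7l1 and Rpl32l rose (42.9%), while the list's median was 0.01. Called higher were 8.23% of all genes and 5.94% of the lower level class. Rpl7, the core partner of Rpl7l1, differed by 0.08 (adjusted p = 0.556). Rpl39l, a paralog known from male germ cells, was the only member with every CD70TG array below every WT array: it read -0.0021, 0.13 and 0.077 in WT and -0.10, -0.29 and -0.069 in CD70TG. Such an order was seen in 13.5% of all genes, and the difference of -0.22 did not pass (adjusted p = 0.138). Rpl10l, also known from the testis, differed by -0.12 (adjusted p = 0.56), and Rpl3l, known from striated muscle, by 0.01 (adjusted p = 0.952).

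With the called genes included, 26 of 60 had an unadjusted p under 0.05, as did 5237 of 19935 genes and 1464 of 2750 in the higher level class. All 3 CD70TG arrays exceeded all 3 WT arrays for 32 members (53.3%), where 17.6% of all genes and 43.7% of genes in the higher level class showed this. The median over the 60 genes was -0.022, -0.15 and -0.082 on the WT arrays and 0.081, 0.044 and 0.10 on the CD70TG arrays. On the arrays of Ifng-/- mice it was -0.086, 0.044 and 0.036, and in CD70TG*Ifng-/- mice 0.065, -0.10 and -0.083. Every CD70TG array was above every WT array, while within Ifng-/- and CD70TG*Ifng-/- 1 array stood on the other side of 0 from its partners.

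**Figure D2:**
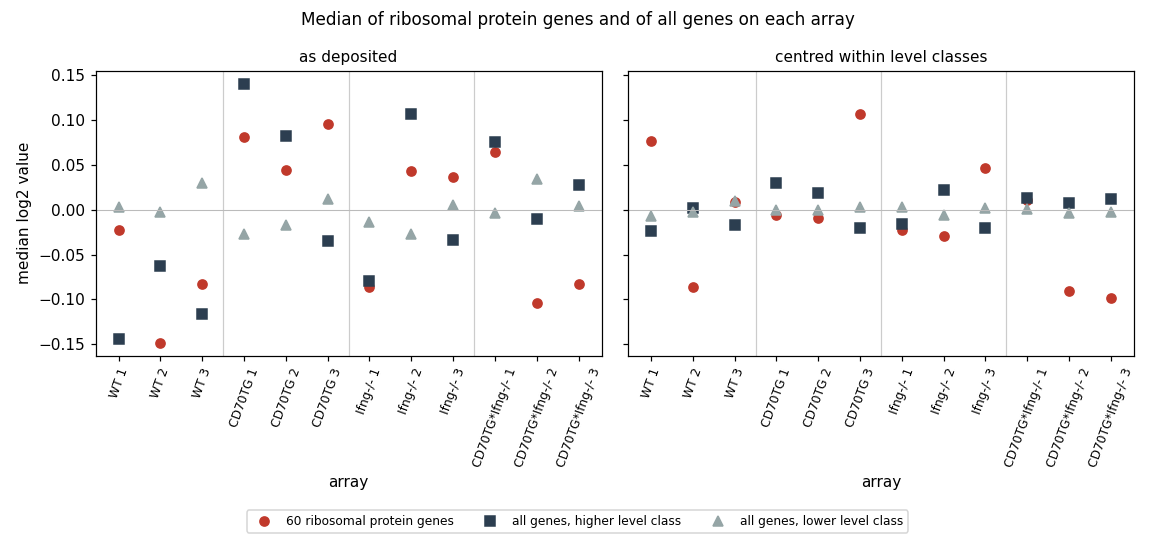
Median log2 value on each of the 12 arrays for the 60 ribosomal protein genes and for all genes of the higher and the lower level class, as deposited on the left and after centring each array within level classes on the right. As deposited, the members' median is below 0 on the 3 WT arrays and above 0 on the 3 CD70TG arrays, and after centring it no longer separates these groups.

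The rise was sensitive to how arrays were scaled. After each array was centred within level classes, 5 members were called (Rps18, Rpl10, Rpl30, Rps27l and Rpl32l; 6.03% of all genes) and the members' median was 0.03. After quantile normalization 6 members were called, and 1063 of 19935 genes were called higher. Leaving out any WT array (1, 2 or 3) left 6, 5 or 5 members called, and any CD70TG array 5, 5 or 7. Over all 19935 genes, 1640 were called higher with every array in the fit. Without the same WT arrays 511, 1241 or 962 were, and without the CD70TG arrays 595, 672 or 1990. The calls of Rps18, Rpl10, Rpl30 and Rps3 were kept without any single array, and Rps3 lost its call after centring within level classes (0.22, adjusted p = 0.0592). Rps15a fell to 0.32 without CD70TG array 2 (adjusted p = 0.0786) and to 0.31 without WT array 2 (adjusted p = 0.0591), and the other 7 were each lost without 4 or more of the 12 arrays.

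Many ribosomal protein genes have near-identical processed copies, so signal from a gene and its copies cannot be told apart, and all counts here are uncertain in that respect. Several probe sets were averaged for 39 members, up to 13 for Rpl23a and Rps12, and the median SD between the probe sets of a gene was 0.0243. The widest was 0.109 for Rps21. Rps15a, which has 1 probe set, and Rps18 were in the higher level class.

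Genes whose products build ribosomes were called higher in larger shares in CD70TG against WT than the ribosomal protein genes (20%). Over all genes 8.23% were called higher, over the higher level class 22.5% and over the lower 5.94%. Of 52 genes of RNA polymerase I and ribosomal RNA processing, 40 rose and 0 fell, with a median of 0.49, among them Utp18 (0.75, adjusted p = 0.00121) and Imp4 (0.57, adjusted p = 0.00118) of the complex that first folds pre-ribosomal RNA. Of 35 large-subunit assembly factors 24 rose (median 0.44), such as Brix1 (0.67, adjusted p = 0.00139), and of 13 small-subunit assembly factors 9 rose (median 0.41), such as Tsr1 (0.63, adjusted p = 0.00301). Mitochondrial ribosomal proteins, the parts of a separate ribosome, rose in 26 of 77 (median 0.27), with Mrpl38 at 0.49 (adjusted p = 0.00659). In the order given, the shares called higher were 76.9%, 68.6%, 69.2% and 33.8%. Few genes of these lists were in the higher level class (11 of 52, 9 of 35, 0 of 13 and 13 of 77). The difference between these lists and the ribosomal protein genes was not tested.

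Factors that handle or translate ribosomal protein messages were also called in part. The shares called higher were 29.4% of chaperones and importers, 38.9% of other TOP genes, 54.2% of initiation factors and 22.2% of mTORC1 and TOP control. Beside them stand 8.23% of all genes and 22.5% of the higher level class. Of 17 chaperones and importers of ribosomal proteins 5 rose (median 0.26), with the lowest adjusted p for Ipo7, an importin (0.37, adjusted p = 0.00526). Of 18 other genes with TOP messages, 17 of them in the higher level class, 7 rose and 0 fell, with a median of 0.23. Centred within level classes, 5 were called higher and 1 lower, with a median of 0.11. In this list Eif3f, an initiation factor subunit, rose by 0.55 (adjusted p = 0.00104). Of 24 initiation factors 13 rose and 1, Eif5, fell by 0.42 (adjusted p = 0.00417), with a median of 0.33, which became 0.19 with 8 called higher and 1 lower after that centring. Of 18 genes of mTORC1 and TOP control 4 rose, among them Larp1, which binds the TOP motif (0.58, adjusted p = 0.000653). Of ribosomal proteins outside the symbol rule, Fau, which is made fused to a ubiquitin-like part, differed by 0.13 and Rps3a1 by 0.22, and 0 of 2 passed by limma (1 had an unadjusted p under 0.05). Some genes, such as Npm1, Naca and Btf3, stand in more than 1 of these lists.

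Myc, a transcription factor that activates genes of ribosome synthesis, read -0.77, -0.49 and -0.45 in WT and 0.32, 0.60 and 1.12 in CD70TG. All CD70TG arrays were higher, by 1.25 (adjusted p = 0.000467), and it was the 1 gene called of 8 in the Myc and Max list (median -0.08). Of 6 genes of the 5S particle, Mdm2 and p53 axis 2 rose: Ccng1, a p53 target, by 0.56 (adjusted p = 0.0131) and Nop53 by 0.36 (adjusted p = 0.00981). Ube2o, the enzyme that marks unassembled ribosomal proteins for removal as reticulocytes mature, read 0.12, 0.19 and 0.19 in WT and -0.54, -0.43 and -0.73 in CD70TG. It fell by 0.73 (adjusted p = 0.000534), as did Rnf10, a ubiquitin ligase of small-subunit proteins, by 0.64 (adjusted p = 0.000255). These were the 2 that fell among 24 genes of ribosome rescue and clearance (8.33%, against 2.7% of all genes). In that list 10 rose (41.7%, against 8.23% of all genes and 22.5% of the higher level class).

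**Figure D3:**
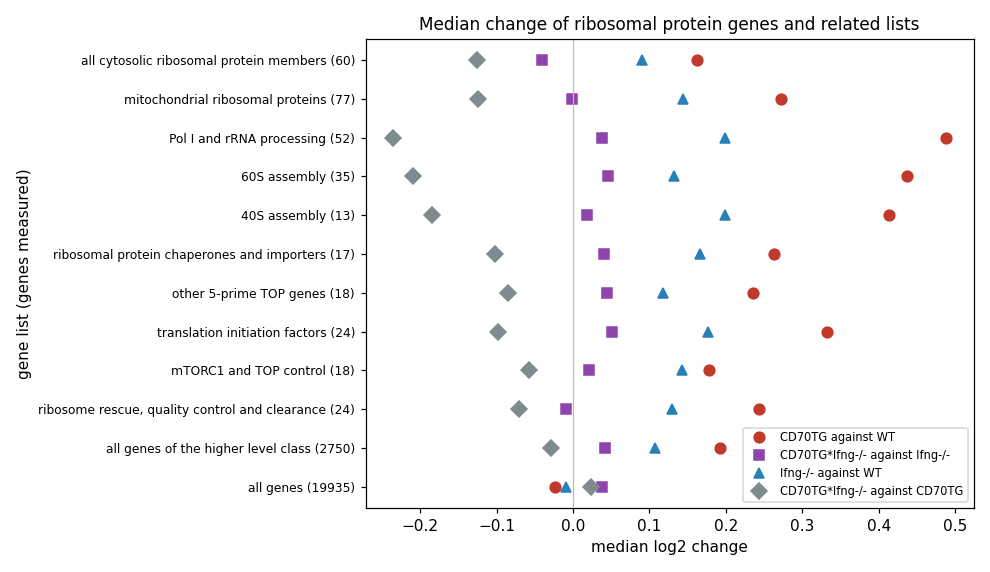
Median log2 change of the 60 ribosomal protein genes, of the related lists and of all genes, with 1 marker for each of 4 comparisons and the number of genes measured in brackets. In CD70TG against WT the ribosomal protein genes (0.16) lie near all genes of the higher level class (0.19) and below the lists for ribosomal RNA processing (0.49) and subunit assembly (0.44 and 0.41).

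Markers of other cell types differed between the same groups. In CD70TG against WT 17 of 19 macrophage markers fell (median -1.66), and their median value lay between 0.52 and 1.24 on the WT arrays and between -0.93 and -0.51 on the CD70TG arrays. B cell markers fell in 13 of 15 (array medians 0.14 to 0.52 in WT and -0.50 to -0.30 in CD70TG), and neutrophil markers fell in 4 of 16 and rose in 1 (0.88 to 1.17 and -0.39 to -0.035). T and NK cell markers fell in 1 of 16 (0.047 to 0.096 and -0.096 to 0.054). Stem and progenitor markers, Myc among them, rose in 2 of 10 and fell in 1 (-0.031 to 0.0005 and -0.02 to 0.31). Erythroid markers, all in the higher level class, fell in 2 of 15 with a median of 0.07 (-0.096 to -0.024 and -0.16 to 0.083). After centring within level classes 5 of the 15 were called lower and their median was -0.08. Centred values show no marker at 0. The part of these shifts in the ribosomal protein result was not tested.

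In mice without Ifng, the transgene left no ribosomal protein gene past the test. In CD70TG*Ifng-/- against Ifng-/-, 0 of 60 were called by limma, where 0.156% of all genes were called higher and 2.35% lower. An unadjusted p under 0.05 was found for 2 of 60, for 2422 of 19935 genes and for 434 of 2750 in the higher level class. The members' median change was -0.04, with 44 below 0, and 0.04 over all genes. Rpl38, known for its role in translating Hox messages, read -0.0065, 0.13 and 0.11 in Ifng-/- mice, while the CD70TG*Ifng-/- arrays read -0.06, -0.43 and -0.19. It was the 1 member whose groups did not overlap, lower with the transgene (7.09% of all genes), and its change of -0.31 did not pass (adjusted p = 0.171). Rps19 differed by 0.24 (adjusted p = 0.408) and Rplp2 by -0.15 (adjusted p = 0.476). Macrophage markers fell here too, in 17 of 19 (array medians 1.03 to 1.34 in Ifng-/- and -1.18 to -0.96 in CD70TG*Ifng-/-). B cell markers fell in 2 of 15, T and NK cell markers in 1 of 16 and stem and progenitor markers in 1 of 10. Erythroid markers were above 0 in 13 of 15 with a median of 0.11 and 0 called by limma. For 6 of them (40.0%) the groups did not overlap, higher with the transgene, against 9.32% of all genes. Neutrophil markers were below 0 in 16 of 16 with a median of -0.90 and 0 called by limma (6 at an unadjusted p under 0.05), and their array medians were spread from -0.65 to 1.97 in Ifng-/-. The part of these markers in the ribosomal protein values was not tested.

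**Figure D4:**
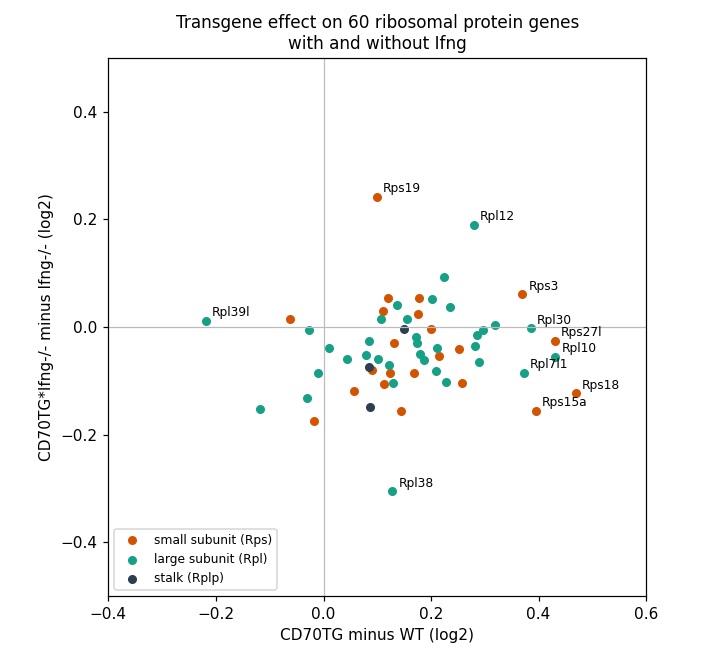
Transgene effect on each of the 60 ribosomal protein genes, with CD70TG minus WT on the horizontal axis and CD70TG*Ifng-/- minus Ifng-/- on the vertical axis, both as log2 changes, coloured by subunit. Most points lie to the right of 0, up to 0.47 for Rps18, and close to 0 or below on the vertical axis, where Rpl38 is lowest at -0.31 and Rps19 highest at 0.24.

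The difference between these transgene effects was tested directly as the interaction, the effect with Ifng minus the effect without. It was above 0 for 56 of 60 members with a median of 0.19. The higher level class had 1963 of 2750 genes above 0 with a median of 0.15, and all genes 8397 of 19935 with a median of -0.04. Of the members 2 passed, which is 3.33% against 1.61% of all genes and 3.24% of genes in the higher level class. No member passed below 0, as 0.281% of all genes did. Rps18 had an interaction of 0.59 ± 0.11 (SE, adjusted p = 0.0212) and Rps15a of 0.55 ± 0.13 (SE, adjusted p = 0.0463). In mice lacking Ifng, Rps15a read -0.0005, 0.028 and 0.15 in the absence of the transgene and 0.0005, -0.17 and -0.12 in its presence. Without Ifng the transgene effect on Rps18 was -0.12 (adjusted p = 0.575) and on Rps15a -0.16 (adjusted p = 0.532), and for both the groups overlapped. Rpl10 (0.49, adjusted p = 0.0549) and Rpl30 (0.39, adjusted p = 0.0605) were just short of the threshold. An unadjusted limma p under 0.05 was found for 19 of 60 members, for 4041 of 19935 genes and for 866 of 2750 in the higher level class.

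Both interaction calls were lost when some single arrays were left out. The Rps18 call was lost without WT array 1 (0.57, adjusted p = 0.0681), CD70TG array 2 (0.60, adjusted p = 0.0596) or CD70TG*Ifng-/- array 2 (0.53, adjusted p = 0.0672) or 3 (0.57, adjusted p = 0.0703), and that of Rps15a without any of 11 of the 12 arrays (interaction 0.47 to 0.60). After centring within level classes the members' median was 0.097 and 2 were called, Rps18 and Rpl30 (1.92% of all genes). Among related genes, 5 of 52 for polymerase I and ribosomal RNA processing had a positive interaction that passed, with the lowest adjusted p for Imp4 (0.68, adjusted p = 0.0151), as did Myc (1.38, adjusted p = 0.0119) and Larp1 (0.57, adjusted p = 0.0246). Cell type markers had interactions as well: 6 of 19 macrophage markers passed above 0 (median 0.60) and 2 of 15 B cell markers below 0 (median -0.35). Erythroid markers were below 0 in 12 of 15 (median -0.12), with 0 called by limma. After centring within level classes 2 erythroid markers were called below 0. How far these markers bear on the ribosomal protein values was not tested.

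Loss of Ifng alone left no member past the test. In Ifng-/- against WT 0 of 60 were called by limma, with 0.00502% of all genes called higher and 0.0% lower. An unadjusted p under 0.05 was found for 9 of 60, for 2759 of 19935 genes and for 609 of 2750 in the higher level class. The members' median change was 0.09 (all genes -0.01, genes of the higher level class 0.11). Rps18 was 0.36 higher without Ifng (adjusted p = 0.217), Rps15a 0.34 (adjusted p = 0.231) and Rpl10 0.28 (adjusted p = 0.246). All 3 arrays of Ifng-/- exceeded all 3 of WT for 13 members (21.7%), against 9.43% of all genes and 21.6% of the higher level class. Both this comparison and CD70TG against WT use the same WT arrays. On these, 8 members (13.3%) were lower than on all other arrays, Rps18, Rps15a, Rps3, Rpl30 and Rpl8 among them, as were 3.28% of all genes and 9.71% of the higher level class. Between Ifng-/- and WT no cell type marker was called by limma. Macrophage markers were above 0 in 19 of 19 (median 0.32), 8 of them at an unadjusted p under 0.05. Neutrophil markers were below 0 in 15 of 16 (median -0.36) and B cell markers in 11 of 15 (median -0.09). The erythroid median was 0.001, and the part of all these markers was not tested.

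In transgenic mice as well, loss of Ifng left no member past the test. In CD70TG*Ifng-/- against CD70TG 0 of 60 were called by limma (0.426% of all genes called higher, 0.988% lower). An unadjusted p under 0.05 was found for 12 of 60, for 2239 of 19935 genes and for 532 of 2750 in the higher level class. The members' median was -0.13, with 55 below 0, against 0.02 over all genes and -0.03 over the higher level class. Every CD70TG*Ifng-/- array was below every CD70TG array for 18 members (30.0%), against 8.27% of all genes and 14.3% of the higher level class. The stalk genes Rplp1 and Rplp0 were 2 of these 18. In the same comparison macrophage markers fell in 3 of 19, neutrophil markers in 3 of 16 and stem and progenitor markers in 1 of 10, while B cell markers rose in 2 of 15 and erythroid markers in 1 of 15. The 3 neutrophil markers were Ctsg (-1.58, adjusted p = 0.0245), Mpo (-1.50, adjusted p = 0.0419) and Prtn3 (-1.29, adjusted p = 0.0343), granule genes of early neutrophil precursors, and CD70TG array 3 stood apart on them, with Mpo at 0.69, 0.67 and 2.03 in CD70TG. The part of these markers in the ribosomal protein values was not tested.

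Rps27l read 0.37, 0.27 and 0.41 in CD70TG and 0.078, -0.24 and -0.23 in CD70TG*Ifng-/-. The groups did not overlap, and the change of -0.48 did not pass with all arrays in the fit (adjusted p = 0.0811). It passed when the fit held only the arrays compared (adjusted p = 0.0372), without CD70TG*Ifng-/- array 1 (-0.58, adjusted p = 0.033) or without Ifng-/- array 1 (adjusted p = 0.0398). Rpl38 differed by -0.32 (adjusted p = 0.176) and Rps18 by -0.23 (adjusted p = 0.252), and neither passed. Among related genes Ube2o rose by 0.49 (adjusted p = 0.0229) and Rnf10 by 0.40 (adjusted p = 0.0175), while Myc fell by 0.76 (adjusted p = 0.0349) and Ccng1 by 0.59 (adjusted p = 0.0329).

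On the chromosome, Rps18 lies in the major histocompatibility region of chromosome 17. Its neighbours were looked at after its values were seen. Of the 11 genes measured among the 6 on either side of it in RefSeq order, 4 were called higher in CD70TG than in WT. Over all genes 8.23% were called higher, and 22.5% of the higher level class, and the region as a whole was not tested. The 4 were Tapbp, a chaperone of antigen presentation (0.65, adjusted p = 0.00034), Wdr46 (0.40, adjusted p = 0.0212), Slc39a7 (0.35, adjusted p = 0.03) and Pfdn6 (0.35, adjusted p = 0.0223). The nearest measured ones, B3galt4 (0.0006, adjusted p = 0.998) and Vps52 (0.31, adjusted p = 0.0604), did not pass.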

How the data were processed

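The 12 arrays were processed by the authors with RMA, per the submitters' processing notes (version not given in the sources used here), and the deposited values are taken as log2, with each probe set centred on its median over the arrays. Why they were centred, and the log base, are stated by no label or header. Level classes were read from the rounding step of the deposited log2 values (tolerance 0.1 of a step, values from 0.001 to 2). Probe sets with 1 symbol in GEO's platform annotation were averaged for each gene, and no gene was filtered out.

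A model with 4 group means was fitted to all 12 arrays and 19935 genes with limma 3.58.1 in R 4.3.3 (eBayes moderation, with 8 residual degrees of freedom and a prior worth 6.23), adjusted by Benjamini-Hochberg at 0.05, and checked on simulated data. The labels number separate mice. Arrays were not paired by replicate number, as the values gave no sign of pairing, though 3 arrays in a group cannot exclude it. Alternatives were scaling, level class, probe set summary, robust variance, the arrays in the fit and a block by number. Named were a set list of members, up to 10 called members each way with the largest change (otherwise the 3 of smallest p) and up to 4 genes of each other list. Members and lists were chosen with earlier results of these data known. Promoter sequences are those of RefSeq, GRCm38.p6. For arrays, their number limits the precision.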

Additional observations from a re-analysis of the deposited data

Results flagged for a closer look

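The transgene effect differed with Ifng genotype for 2 ribosomal protein genes by a test of the difference itself, the limma interaction adjusted over 19935 genes. This is 3.33% of the 60 members, near the 3.24% of genes in the higher level class and above the 1.61% of all genes. For Rps18 the effect was larger with Ifng than without by 0.59 on the log2 scale (adjusted p = 0.0212), and the 3 CD70TG arrays were all above WT while the groups without Ifng overlapped. For Rps15a the interaction was 0.55 (adjusted p = 0.0463), with the same arrangement of arrays. The Rps18 call was lost without any 1 of 4 arrays (WT 1, CD70TG 2, CD70TG*Ifng-/- 2 or 3) and with the replicate block. That of Rps15a was lost without any 1 of 11 of the 12 arrays, after centring within level classes, after quantile normalization and with the block. In the same test 6 of 19 macrophage markers passed above 0 and 2 of 15 B cell markers below 0, and their part in these values was not tested. Groups of 3 arrays were not tested for single outlying arrays.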

How the results depend on the processing

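The count of 12 ribosomal protein genes called higher in CD70TG against WT became 5 after centring within level classes, 6 after quantile normalization, 7 with the replicate block and 5 to 13 without single arrays. Over all 19935 genes the count called higher went from 1640 to 1203, 1063 and 1231 in the same order, and to 511 to 2017 without single arrays. The members' median of 0.16 became 0.0286 after centring within level classes, that of Ifng-/- against WT went from 0.09 to -0.0015 and that of the interaction from 0.19 to 0.0969. For the interaction, the count of 2 became 4 among genes of the higher level class only, 4 after median centring of each array, 1 among the 21 members with 1 probe set, 1 after quantile normalization, 0 with the replicate block and 0 to 4 without single arrays. Over all genes the count above 0 went from 321 to 253 (of 2750), 378, 306 (of 18937), 274 and 112 in the same order. Without single arrays it was 74 to 614. In CD70TG*Ifng-/- against CD70TG, 1 member was called lower when only the arrays compared were fitted and 0 to 1 without single arrays. Over all genes the count called lower went from 197 to 228 and to 105 to 283 in these fits. The cause of these changes was not tested, apart from the smaller number of genes or arrays that some alternatives hold. In CD70TG*Ifng-/- against Ifng-/- and Ifng-/- against WT the count was 0 under all alternatives run. Over the ribosomal protein genes picked by the naming rule, 64 values lost their call, 8 gained one, 1706 kept their side of the threshold and 0 reversed. Values never called are among those that kept their side, and genes of other lists, Rpl32l and Rpl4 were not counted. In CD70TG against WT Rpl32l kept its call in 7 of 12 fits without single arrays and in 6 of 8 other alternatives. Rpl4 kept it in 4 of 12 and 5 of 9. The replicate numbers gave no sign of pairing: deviations of same-numbered arrays correlated from -0.401 to 0.311 (median -0.0725, 6 of 18 pairs over 0.1), and those of differently numbered arrays had a median of 0.052 (12 of 36 over 0.1). With 3 arrays in a group these correlations cannot exclude a pairing. Rps18, Rpl10, Rpl30, Rps3 and Rps15a were among those that kept their CD70TG calls with the block. Rps27l, Rpl27, Rpl10a, Rpl32l and Rpl4 lost theirs, as did Rps18 and Rps15a their interaction calls. Signal over background is known only as the level class.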
